A study of Mus musculus with 12 samples.

Results

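The integrated stress response is the program by which cells adapt to missing amino acids, unfolded protein or lack of oxygen. Kinases such as GCN2 and PERK phosphorylate the translation factor eIF2, which slows protein synthesis in general and raises translation of the transcription factor ATF4. ATF4 then turns on amino acid synthesis, amino acid import and its own feedback inhibitors, and many tumors use this program to feed growth. ATF4 itself is controlled mainly by translation, so that its mRNA is not a direct measure of its activity.

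The expression of 36 genes of this response was examined in Rd76-9 tumors of mice. The genes were taken by name from ATF4 and its partner factors, the known targets of ATF4 and the regulators of eIF2, and are 36 of the 38898 genes in the deposited data. They fall into 6 transcription factors, 2 coregulators, 7 serine and one-carbon enzymes, 6 other amino acid enzymes, 7 amino acid transporters, 5 kinases and regulators of translation or growth, and 3 secreted or surface proteins. All 36 had enough reads to be tested, as had 17602 genes in all.

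Rd76-9 is a murine embryonal rhabdomyosarcoma line, injected into the flank of young adult wild-type C57/Bl6J mice, so that the tumor cells of all groups come from 1 cell line. RNA was sequenced from 12 tumors collected at day 16, 3 in each of 4 groups. Tumors m1, m2 and m3 were given vehicle (empty nanoparticles and saline), tumors m4, m5 and m6 vincristine (VCR) at 0.25 mg/kg, tumors m7, m8 and m9 the FOXM1 inhibitor RCM1 in folic acid-coated nanoparticles (RCM1-NPFA) at 8 µg per injection, and tumors m10, m11 and m12 both (VCR + RCM1-NPFA). One label of the vehicle tumors also names RCM1, while their title and the description of the mice name only the control. RNA came from whole tumors, in which fewer cells of a type and less RNA per cell cannot be told apart.

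Depth was even, with 29342195 to 32108055 estimated reads per tumor. Levels are given as CPM (read counts scaled to the size of the library). Of 10 rhabdomyosarcoma and myogenic markers, *Myf5* and *Cdh15* had 48.9 to 69.9 and 125 to 202 CPM over all tumors. *Des* ran from 7.76 to 573 CPM and *Pax3* from 1.91 to 3.46 CPM. *Myf6*, *Myh3*, *Chrna1* and *Pax7* had at most 13.7, 2.57, 9.03 and 0.19 CPM. *Myod1* and *Myog* were at or near 0 in the vehicle tumors and in m7 and m8, and at most 2.38 and 2.16 CPM in the others. The summed level of 22 genes of adult muscle fibres was 314 to 459 CPM in the vehicle tumors. It was 2317 to 14858 CPM after VCR, 422 to 22245 CPM after RCM1-NPFA and 851 to 5788 CPM after the combination, with the highest values in m5 and m9. The part of muscle RNA in the members' values was not tested.

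ATF4 binds, with C/EBP partners, a composite DNA element, of which TGATGNAA is the core. It was searched on both strands of the promoters that RefSeq gives for 31 of the 36 genes (GRCm38.p6, 250 bases before to 50 after the start of transcription). The motif was present for 8 of these 31 genes (25.8%), against 4.51% of the 27025 genes with a promoter in the same table and 3.06% of the 13517 of them that were tested here. The other 23 genes, *Eif2ak4*, *Slc38a2* and *Psat1* among them, had no match in this window. A match describes the letters and does not show binding. Known targets of ATF4 were put on the list by name, so the higher share is not independent of that choice and was not tested. The matches are printed below in 30 bases each, on the strand that reads TGATGNAA, with the core in capitals, to show the bases around it. The core itself is alike by the search.

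Asns: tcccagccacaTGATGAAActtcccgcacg
Atf3: cgcggacttggTGATGCAAgtgcgagaagg
Nupr1: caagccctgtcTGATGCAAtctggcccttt
Pck2: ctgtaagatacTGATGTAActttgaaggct
Pycr1: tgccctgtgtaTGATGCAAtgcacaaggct
Slc1a4: caggctggagaTGATGCAAcgcaggaggca
Trib3: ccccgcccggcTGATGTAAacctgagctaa
Vldlr: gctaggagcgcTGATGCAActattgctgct

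The windows lie at chr6:7693214-7693243 on the minus strand for *Asns*, chr1:191183425-191183454 on the plus strand for *Atf3*, chr7:126625562-126625591 on the plus strand for *Nupr1* and chr14:55540152-55540181 on the minus strand for *Pck2*. They lie at chr11:120643833-120643862 on the minus strand for *Pycr1*, chr11:20332699-20332728 on the plus strand for *Slc1a4*, chr2:152344028-152344057 on the plus strand for *Trib3* and chr19:27216809-27216838 on the minus strand for *Vldlr*. Counted along the gene from 0 at the start of transcription, the first base of the core is at -23 in *Asns*, at -4 in *Slc1a4* and at 14, just inside the gene, in *Trib3*. In *Atf3*, *Nupr1*, *Pycr1*, *Pck2* and *Vldlr* it lies farther upstream, at -110, -110, -103, -103 and -200. The *Vldlr* match is counted from the later of its starts of transcription and lies inside the gene, which begins at 27216480. The window at the earlier *Vldlr* start had no match. The 250 bases before the start of *Asns*, the best known amino acid response promoter, are given in the direction of the gene (chr6:7693210-7693459, minus strand).

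Asns upstream: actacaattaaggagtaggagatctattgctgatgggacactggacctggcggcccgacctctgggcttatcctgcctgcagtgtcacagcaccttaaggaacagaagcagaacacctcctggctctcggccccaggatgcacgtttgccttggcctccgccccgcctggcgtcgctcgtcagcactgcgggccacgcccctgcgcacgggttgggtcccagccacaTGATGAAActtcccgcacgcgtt

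Levels of different genes were compared as TPM, a share of all transcripts that accounts for transcript length. *Atf4* had the highest mean of the 36 genes, 422 ± 52.8 TPM (SD over the 12 tumors), and was above *Phgdh* in 12 of 12 tumors. *Phgdh*, the first enzyme of serine synthesis, followed with 360 ± 37.6 TPM. *Eif4ebp1*, which encodes the repressor of cap-dependent translation 4E-BP1, came next with 286 ± 28.1 TPM. *Psat1* (234 ± 38.6 TPM) and *Shmt2* (234 ± 27.3 TPM) were not ordered, since *Psat1* was the higher in 6 of 12 tumors.

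*Asns* (117 ± 23.5 TPM), *Slc7a5* (115 ± 20.4 TPM) and *Mthfd2* (111 ± 17.9 TPM) lay close together in the middle of the range. *Ddit3* had 58.2 ± 18.1 TPM and *Trib3* 21.6 ± 8.30 TPM. The kinase genes were low, with 14.8 ± 2.18 TPM for *Eif2ak4* and 10.3 ± 0.864 TPM for *Eif2ak3*. The lowest levels were those of *Vldlr* (2.46 ± 0.946 TPM), *Aldh1l2* (2.31 ± 0.907 TPM) and *Gdf15* (1.60 ± 0.655 TPM). *Gdf15*, a stress hormone that reduces appetite, was thus present only as a trace.

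**Figure D1:**
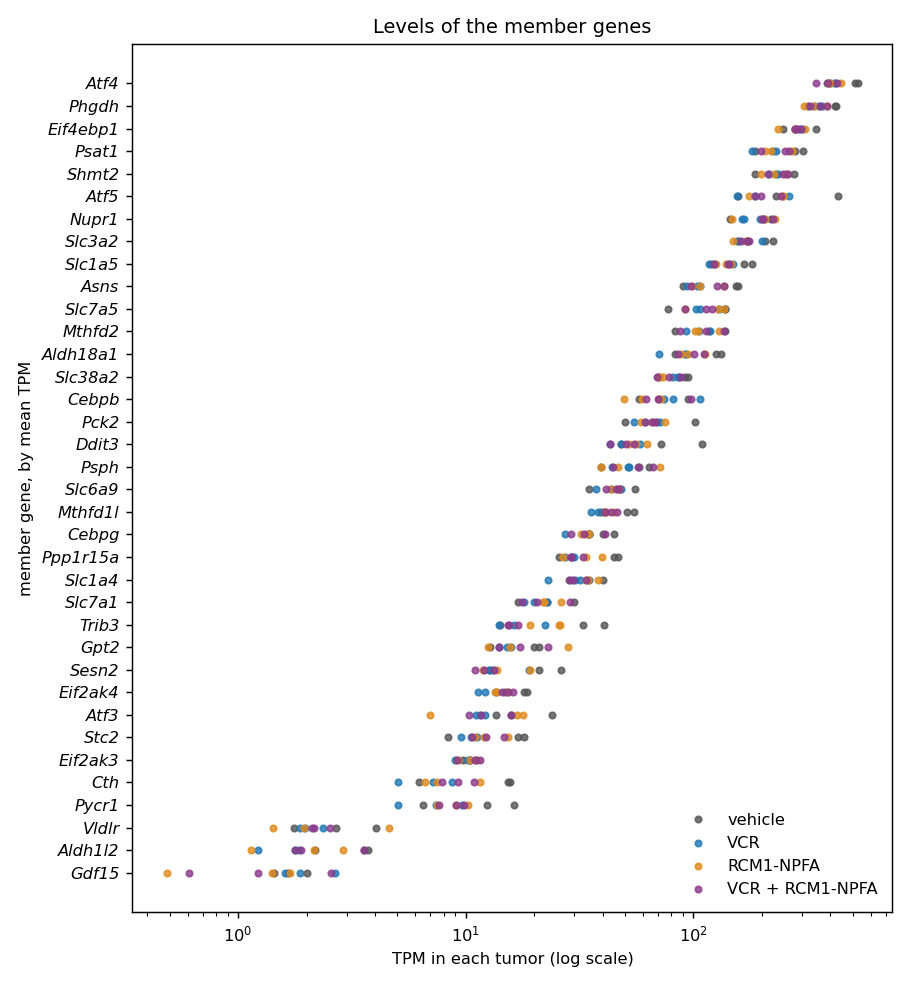
Levels of the 36 genes in each of the 12 tumors, in TPM on a log scale, ordered by their mean; each point is 1 tumor and colours mark the groups. The genes span from 1.60 TPM for Gdf15 to 422 TPM for Atf4, and the groups lie over each other for most genes.

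The first question was how the genes of the response varied between tumors, and the widest differences lay inside the vehicle group. For *Asns*, which makes asparagine, the vehicle tumors had 96.8, 169 and 185 CPM in m1, m2 and m3. All 9 treated tumors lay between m1 and m2, from 112 to 153 CPM. For *Trib3*, which encodes a pseudokinase that restrains ATF4 and CHOP, the vehicle tumors had 16.0, 37.2 and 50.8 CPM. Its treated tumors lay from 17.9 to 31.5 CPM, again between m1 and m2.

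The same order held for most of the response. Tumor m1 was the lowest vehicle tumor for 33 of 36 genes and m3 the highest for 31. The complete order m1, m2, m3 was found for 29 of 36 genes (80.6%), against 17.7% of all tested genes. In m3, 11 of 36 genes were over 2 times their level in m1 (30.6%), as were 1.87% of all tested genes. The ratio was 3.18 for *Trib3*, 3.10 for *Atf5*, 2.83 for *Pycr1*, 2.76 for *Cth* and 2.36 for *Ddit3*.

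Over all 12 tumors, m3 was the highest for 25 of the 36 genes and m1 the lowest for 19. Relative to the mean of the vehicle tumors, the median of the 36 genes on the log2 scale was -0.45 in m1, 0.099 in m2 and 0.35 in m3. It lay between -0.28 and 0.0019 in the 9 treated tumors. For 26 of 36 genes (72.2%), the ratio of the highest to the lowest tumor was larger in the vehicle group than in any treated group, as it was for 39.8% of all tested genes. The 9 hypoxia genes summed to 680 CPM in m1, 844 CPM in m2 and 1356 CPM in m3, in the same order. The 10 ER chaperones summed to 4086, 4808 and 4665 CPM and the 10 leukocyte genes to 927, 783 and 875 CPM, and neither followed that order. The 8 adipocyte genes summed to 74.1, 140 and 6.62 CPM and the 5 erythroid genes to 232, 307 and 11.6 CPM, so that m3 was the lowest vehicle tumor in both. The part of hypoxia, fat and blood RNA in the members' values was not tested.

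**Figure D2:**
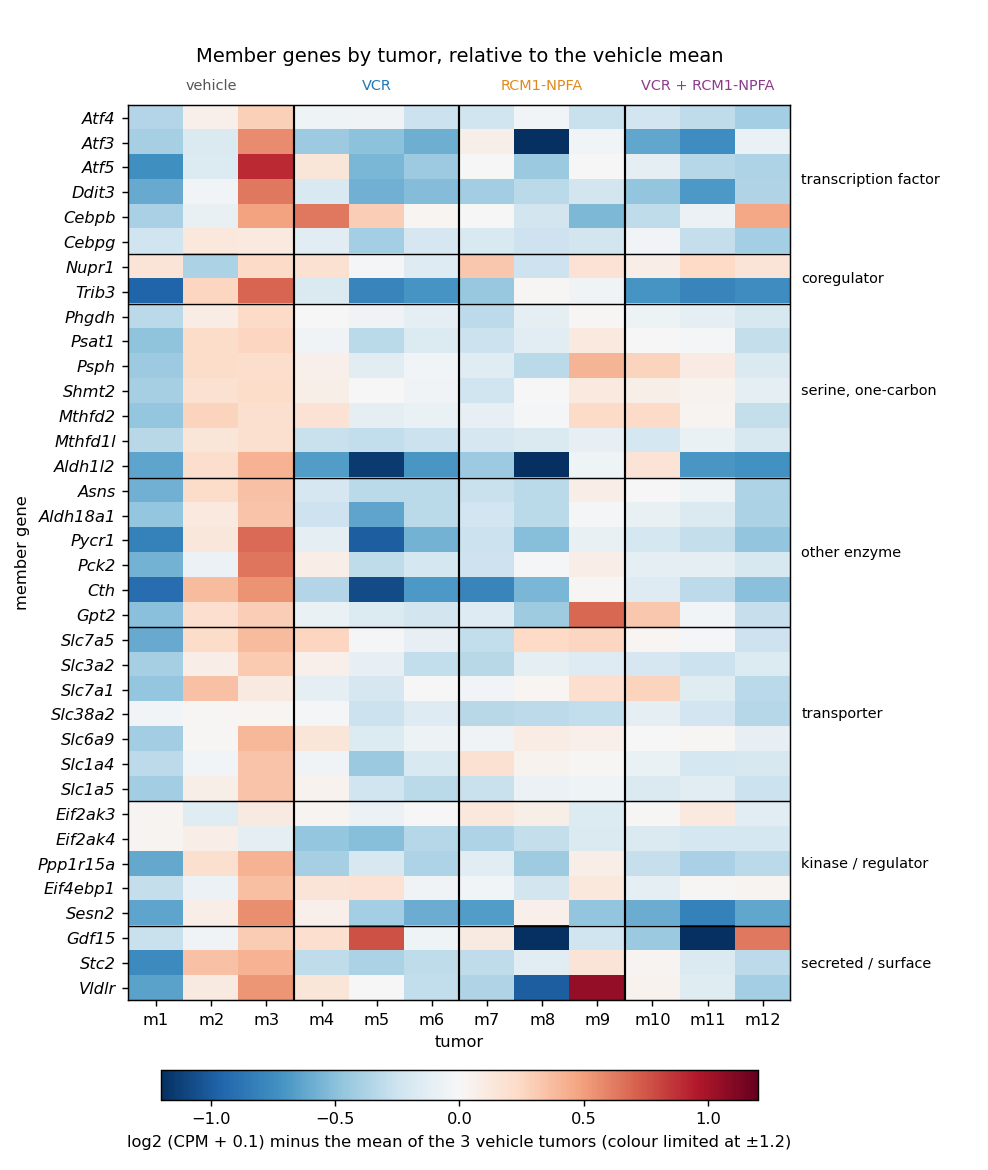
Each of the 36 genes (rows, by role) in each tumor (columns, by group), as the difference of log2 (CPM + 0.1) from the mean of the 3 vehicle tumors; red is higher, blue is lower, and colours are limited at ±1.2. Column m1 is blue and column m3 red for nearly every gene, with medians of -0.45 and 0.35, while the treated tumors lie between them.

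Genes whose levels went together between tumors were then described through *Asns*, on deviations from the group means of all 12 tumors. The median correlation with *Asns* was 0.808 over the other 35 genes and -0.010 over the 17601 other tested genes. A correlation over 0.6 was found for 27 of 35 (77.1%) and for 7.05% of all. These values describe points that share library and depth, and m1 and m3 weigh heavily in them. The closest genes were *Psat1* (0.962), *Stc2* (0.958), *Mthfd2* (0.937), *Shmt2* (0.934), *Aldh18a1* (0.932) and *Cth* (0.929), enzymes of serine, folate, proline and cysteine metabolism and a secreted glycoprotein.

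Some genes stood outside this pattern. The correlation with *Asns* was -0.10 for *Eif2ak3* (the kinase PERK), -0.011 for *Eif2ak4* (the kinase GCN2), -0.043 for *Nupr1*, 0.044 for *Gdf15* and 0.19 for *Cebpb*. Both kinases act before ATF4 in the pathway. The 3 transcripts of *Cebpb* cannot be told apart by their reads, and 20.7% of its exon bases overlap a gene on the other strand, whose reads may be counted with it.

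Of 6 relations tested over the 12 tumors, 5 had an adjusted permutation p under 0.05 for Pearson's r. *Asns* and *Psat1* gave r = 0.959 (permutation p = 1e-05, which is the smallest these permutations can give, adjusted p = 3e-05) and Spearman's rho = 0.916 (permutation p = 7e-05, adjusted p = 0.00021). *Ddit3*, which encodes CHOP, and its target *Trib3* gave r = 0.914 (permutation p = 1e-05, adjusted p = 3e-05) and rho = 0.923 (permutation p = 5e-05, adjusted p = 0.00021). Both held when m2 and m3, the 2 tumors most distant from the median of the first gene, were left out, with r = 0.928 and r = 0.834.

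*Slc7a5* and *Slc3a2*, the 2 chains of a leucine transporter, gave r = 0.803 (permutation p = 0.0017, adjusted p = 0.0034) and rho = 0.846 (permutation p = 0.00096, adjusted p = 0.00192). Without m1 and m3 it was r = 0.716. *Asns* and *Trib3* gave r = 0.748 (permutation p = 0.00497, adjusted p = 0.00745) and rho = 0.629 (permutation p = 0.0325, adjusted p = 0.0487). *Atf4* and *Asns* gave r = 0.618 (permutation p = 0.0318, adjusted p = 0.0382) and rho = 0.531 (permutation p = 0.0787, adjusted p = 0.0787). Without m2 and m3 the last 2 relations fell to r = 0.385 and r = 0.057, so they rest on those tumors. Within the groups, on deviations from the group means, r was 0.962 for *Asns* and *Psat1*, 0.921 for *Ddit3* and *Trib3*, 0.898 for *Slc7a5* and *Slc3a2*, 0.831 for *Asns* and *Trib3* and 0.719 for *Atf4* and *Asns*.

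*Chac1*, a further target of ATF4 and CHOP that degrades glutathione, gave r = 0.543 with *Asns* (permutation p = 0.0679, adjusted p = 0.0679) and rho = 0.552 (permutation p = 0.0674, adjusted p = 0.0787). It was 0.699 on deviations from the group means and 0.022 without m2 and m3.

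**Figure D3:**
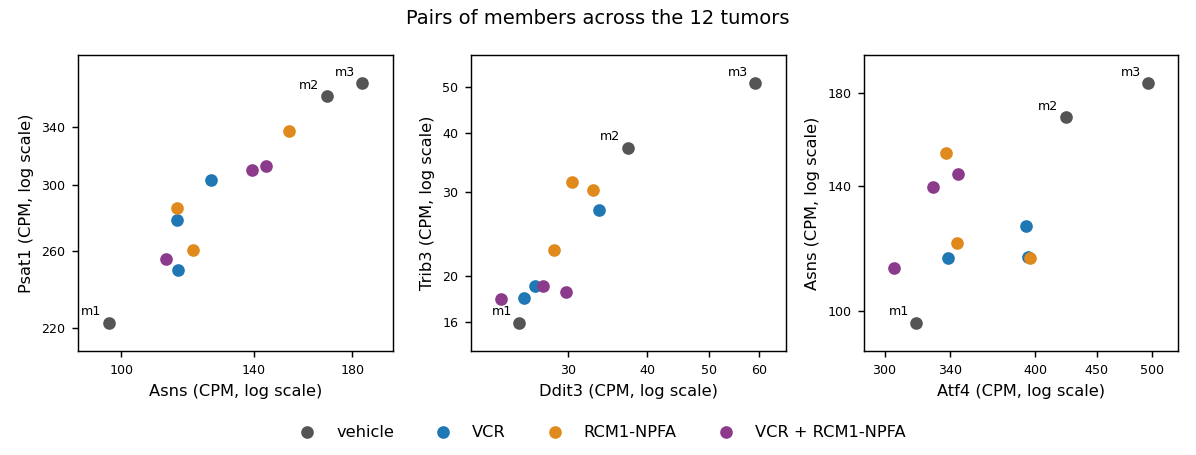
CPM of 3 pairs of genes in the 12 tumors, both axes on log scales; each point is a tumor, coloured by group, and the vehicle tumors are named. Asns and Psat1 (r = 0.959) and Ddit3 and Trib3 (r = 0.914) lie along a line with m1 and m3 at or near the ends, while Atf4 and Asns (r = 0.618) depend on m2 and m3.

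The second question was whether a treatment changed the response. After VCR, 1 gene of the 36 fell, *Eif2ak4*, which encodes the amino acid sensor GCN2. Across the genome edgeR's quasi-likelihood test called 977 of 17602 genes at an adjusted p under 0.1, the threshold used throughout (5.55%), so that 1 of 36 is near the background. DESeq2 called 5 of the 36 and 15% of all genes. The mean of 33 of the 36 genes was lower than in vehicle, with a median log2 fold change of -0.20, while 49.7% of all tested genes were lower and their median was 0.0016. At an unadjusted p under 0.05 there were 5 genes, all lower, against 22.1% of all genes in either direction and 10.4% lower. Every VCR tumor was below every vehicle tumor for 3 genes, *Atf3*, *Aldh1l2* and *Eif2ak4*, as it was for 10.9% of all genes. The standard error of a log2 fold change ran from 0.078 to 0.51 over the 36 genes, with a median of 0.20, as large as the median change.

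*Eif2ak4* had 55.0, 56.5 and 49.7 CPM in the vehicle tumors. It had 38.8, 37.5 and 42.3 CPM after VCR, 41.5, 44.0 and 47.7 CPM after RCM1-NPFA, and 47.7, 46.4 and 46.2 CPM after the combination. In CPM all 9 treated tumors were below all 3 vehicle tumors. In TPM the VCR tumors were too, with 12.1, 11.3 and 13.6 TPM against 18.1, 18.7 and 14.9 TPM. RCM1-NPFA tumor m9 (15.4 TPM) and combination tumors m10 and m11 (16.1 and 15.3 TPM) were above vehicle tumor m3 in TPM. The log2 fold change after VCR was -0.44 (SE 0.078, edgeR adjusted p = 0.0651), or 0.736 of the vehicle level. At the threshold of 0.1 the call held in 11 of 11 fits with another filter, scaling, test or set of groups or without both m5 and m9, with an adjusted p of 8.25e-05 to 0.0869. At a threshold of 0.05 it was lost. With each tumor left out in turn it held in 8 of 12 fits, with a log2 fold change of -0.52 to -0.40. It was lost without m2 (adjusted p = 0.156), m4 (0.213), m5 (0.280) or m11 (0.115), fits in which at most 1 gene of the whole table was called. *Eif2ak4* lies on chromosome 2 from 118388583 to 118475234 (GRCm38), and none of its exon bases overlaps a gene on the other strand.

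The change of *Eif2ak4* was smaller after the other treatments. It was -0.28 after RCM1-NPFA (SE 0.078, adjusted p = 0.419) and -0.20 after the combination (SE 0.078, adjusted p = 0.678). Against VCR alone the combination was higher by 0.24 (SE 0.078, unadjusted p = 0.00915, adjusted p = 0.855). The interaction, which measures how far the combination departs from both single changes added up, was 0.52 (SE 0.11, unadjusted p = 0.000556, adjusted p = 0.293). DESeq2 gave an adjusted p of 0.0104 for this interaction, and the range over 9 alternatives was 0.0104 to 0.785.

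**Figure D4:**
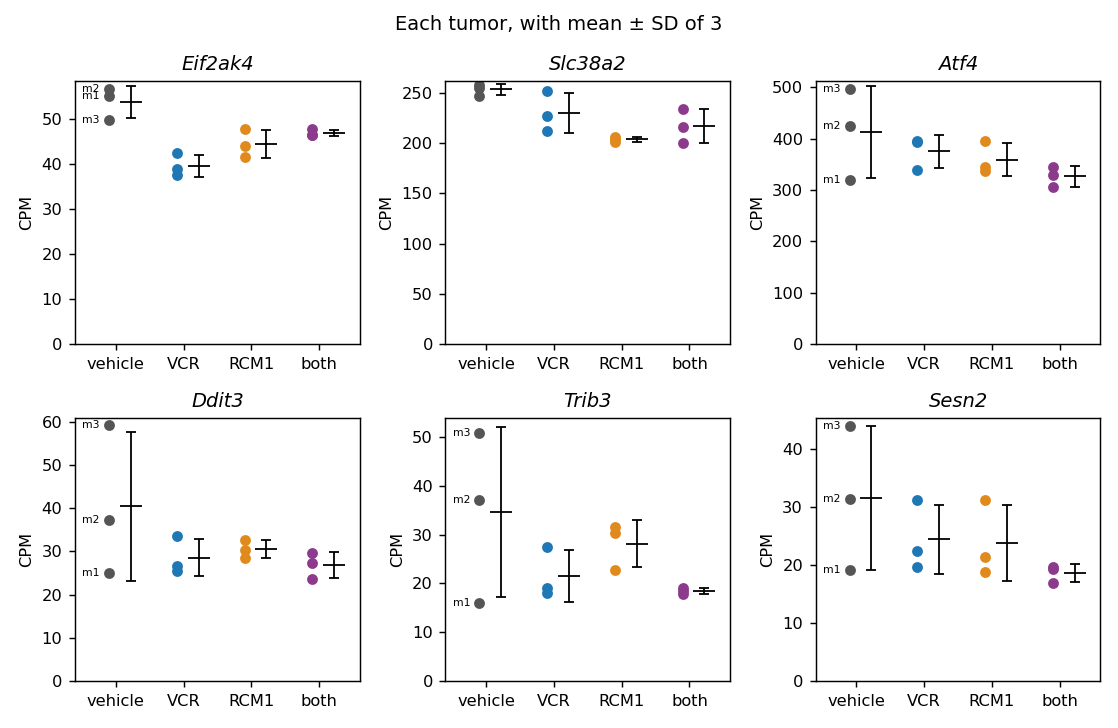
CPM of 6 genes in each tumor (points, by group) with the mean ± SD of the 3 tumors of a group beside them; all axes start at 0 and the group names are shortened to RCM1 for RCM1-NPFA and both for VCR + RCM1-NPFA. In CPM all treated tumors lie below all vehicle tumors for Eif2ak4, and those of RCM1-NPFA and the combination do for Slc38a2. For Atf4, Ddit3, Trib3 and Sesn2 the vehicle tumors spread over most of the range.

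Among the transcription factors after VCR, 5 of 6 were lower and none passed the threshold. *Atf3*, an early stress factor, changed most, with 14.7, 17.3 and 28.9 CPM in vehicle and 14.3, 13.8 and 12.9 CPM after VCR (log2 fold change -0.57, SE 0.33, adjusted p = 0.329). The lowest vehicle tumor was just above the highest VCR tumor. *Ddit3* had a log2 fold change of -0.50 and *Atf5*, a relative of ATF4 with the same kind of translational control, one of -0.41. *Atf4* itself was at -0.14 (SE 0.14), and *Cebpb* was the 1 factor with a higher mean, at 0.30 (SE 0.25). Of the 2 coregulators, *Trib3* was at -0.69 (SE 0.32, adjusted p = 0.235), with 27.6, 18.0 and 19.0 CPM after VCR, and *Nupr1* at -0.014.

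The serine and one-carbon enzymes were all lower in mean after VCR, 7 of 7, 4 of them by less than 0.1 on the log2 scale, and none passed the threshold. *Aldh1l2*, a mitochondrial enzyme that oxidises formyl-folate, had 6.97, 12.6 and 14.6 CPM in vehicle and 6.79, 4.83 and 6.66 CPM after VCR (log2 fold change -0.90, SE 0.36, adjusted p = 0.179). *Mthfd1l*, which makes formate in mitochondria, had 83.9, 117 and 121 CPM in vehicle and 88.2, 85.9 and 88.3 CPM after VCR (-0.29, SE 0.11, adjusted p = 0.165). Its VCR tumors lay within 1.03 times of each other, above the vehicle tumor m1 and below the other two. *Psat1* was at -0.21 (SE 0.18), and *Phgdh*, *Psph*, *Shmt2* and *Mthfd2* lay between -0.068 and -0.014.

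The other amino acid enzymes had the lowest median of the larger roles, -0.38 over 6 genes, all lower in mean. *Aldh18a1*, the first enzyme of proline synthesis, had 166, 249 and 291 CPM in vehicle and 193, 148 and 183 CPM after VCR (-0.43, SE 0.18, adjusted p = 0.192). *Cth*, which makes cysteine from cystathionine, had 6.14, 15.1 and 16.9 CPM in vehicle and 9.11, 5.49 and 7.18 CPM after VCR (-0.81, SE 0.34, adjusted p = 0.192). For both genes the VCR tumors overlapped m1 and lay below m2 and m3. *Pycr1*, the last enzyme of proline synthesis, was at -0.64 (SE 0.32), *Asns* at -0.34 (SE 0.20), *Pck2* at -0.22 and *Gpt2* at -0.20.

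The transporters moved less. All 7 had a lower mean after VCR, from -0.24 for *Slc1a4*, a carrier of serine and alanine, to -0.0014 for *Slc7a5*. *Slc1a4* had 64.3, 78.2 and 101 CPM in vehicle and 77.6, 58.7 and 70.3 CPM after VCR (SE 0.14, adjusted p = 0.360), and the groups overlapped. Of the regulators other than *Eif2ak4*, *Ppp1r15a*, whose product GADD34 restores translation, was at -0.38 (SE 0.21), *Sesn2*, a leucine sensor that inhibits mTORC1, at -0.37 (SE 0.28), *Eif2ak3* at -0.018 and *Eif4ebp1* at 0.070. Of the secreted and surface proteins, *Stc2* had 8.08, 17.7 and 18.5 CPM in vehicle and 11.2, 10.6 and 11.2 CPM after VCR (-0.42, SE 0.25, adjusted p = 0.350).

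After RCM1-NPFA, 28 of 36 genes had a lower mean than in vehicle, with a median log2 fold change of -0.19 (0.0028 over all tested genes), and none was called. edgeR called 0% of all genes in this comparison (0 of 17602). At an unadjusted p under 0.05 there were 2 genes, *Slc38a2* and *Eif2ak4*, both lower, against 9.78% of all genes and 4.44% lower. For these genes every treated tumor was below every vehicle tumor in CPM, as for 5.86% of all genes. In TPM this held for *Slc38a2* but not for *Eif2ak4*. DESeq2 with all 12 tumors called both, and 1.58% of all genes. DESeq2 on only these 2 groups called *Slc38a2* and 0.221% of all genes, but not *Eif2ak4* (adjusted p = 0.688).

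*Slc38a2* encodes SNAT2, a glutamine and alanine transporter induced by amino acid starvation, and lies on chromosome 15 from 96687392 to 96699728. It had 247, 255 and 257 CPM in the vehicle tumors and 201, 204 and 206 CPM after RCM1-NPFA, and both groups were narrow. The log2 fold change was -0.32 (SE 0.078, unadjusted p = 0.00184, edgeR adjusted p = 0.419). Over the fits without 1 tumor it lay between -0.33 and -0.30, and DESeq2 gave an adjusted p of 0.0139. It had 252, 212 and 227 CPM after VCR (-0.14, SE 0.078, adjusted p = 0.324) and 234, 216 and 199.8 CPM after the combination (-0.23, SE 0.078, adjusted p = 0.666). In CPM the combination tumors were all below the vehicle tumors, while VCR tumor m4 was not. In TPM combination tumor m10 (87.9 TPM) was above vehicle tumor m3 (85.8 TPM).

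The other genes with the largest change of their role after RCM1-NPFA all overlapped vehicle. *Ddit3* had 28.5, 30.4 and 32.8 CPM (-0.41, SE 0.24, adjusted p = 0.624), inside the vehicle range of 25.0 to 59.2 CPM. *Aldh1l2* had 8.01, 4.34 and 10.5 CPM (-0.58, SE 0.36, adjusted p = 0.640) and *Cth* 6.69, 7.92 and 11.8 CPM (-0.53, SE 0.34, adjusted p = 0.649). *Sesn2* had 18.8, 31.2 and 21.5 CPM (-0.41, SE 0.28, adjusted p = 0.678), against 19.2, 31.5 and 44.1 CPM in vehicle. *Trib3* had 22.7, 31.5 and 30.3 CPM (-0.30, SE 0.32, adjusted p = 0.807), and its sign turned without m3, to 0.085. *Gdf15* had 1.39, 0.415 and 1.07 CPM against 1.05, 1.24 and 1.61 CPM (-0.44, SE 0.52, adjusted p = 0.832). Of the 7 transporters, 4 were lower and 3 higher in mean, with a median of -0.0017.

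**Figure D5:**
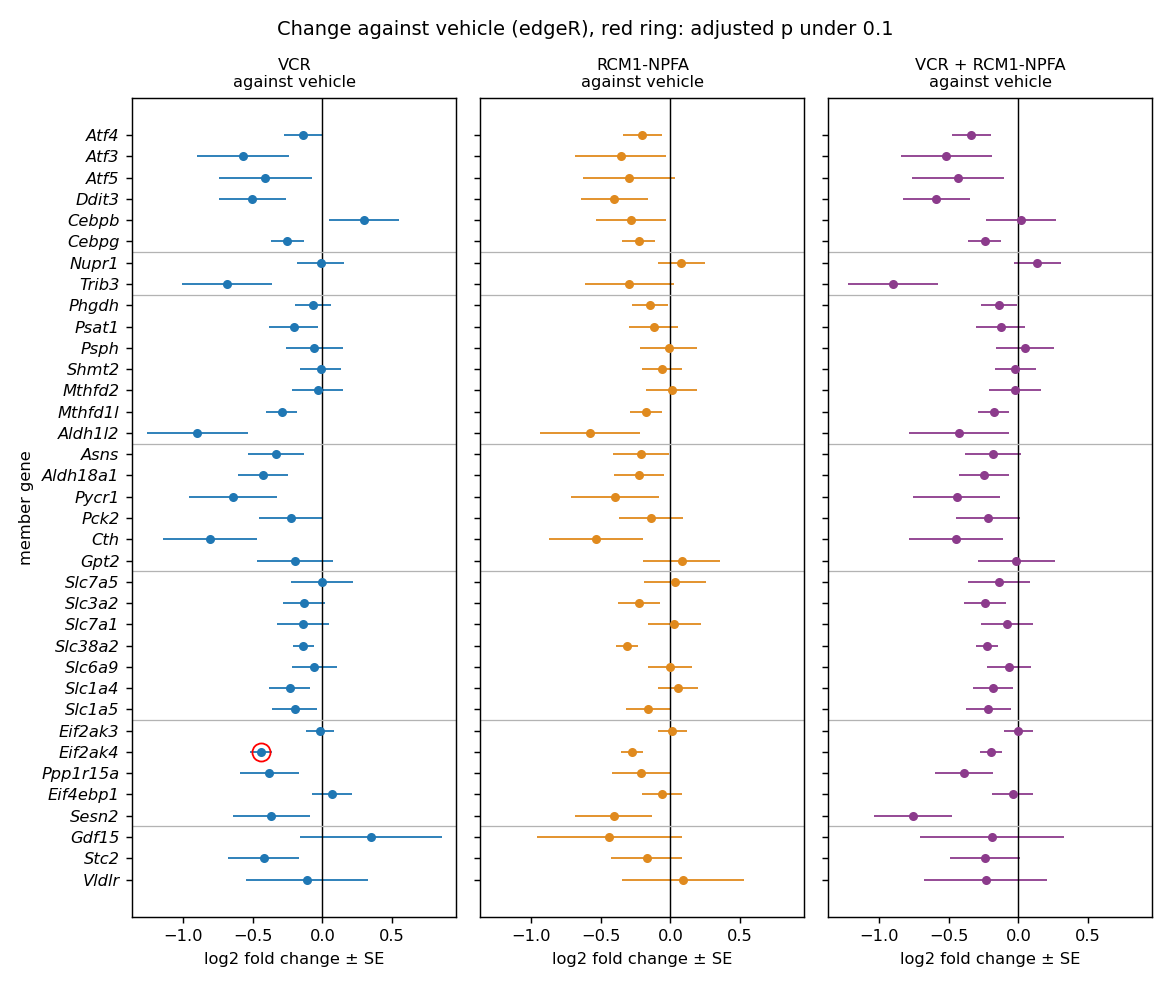
Log2 fold change against vehicle (points) with its standard error (bars) for the 36 genes after VCR, RCM1-NPFA and the combination, by role from transcription factors at the top to secreted and surface proteins; a red ring marks an adjusted p under 0.1 in edgeR. Most points lie left of 0 in all panels (33, 28 and 33 of 36), and only Eif2ak4 after VCR carries a ring.

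After VCR + RCM1-NPFA, 33 of 36 genes had a lower mean than in vehicle, with a median of -0.21 (0.0016 over all tested genes). edgeR called 0% of all genes and 0 of the 36. DESeq2 with all 12 tumors called 0.393% of all genes (61) and 0 of the 36. Without both m5 and m9 edgeR called 0.772% of all genes (138), and without m9 alone 44 genes, none of them among the 36. At an unadjusted p under 0.05 there were 6 genes, all lower, against 7.31% of all genes and 3.49% lower. Every combination tumor was below every vehicle tumor in CPM for 2 genes, *Slc38a2* and *Eif2ak4*, as for 5.53% of all genes. In TPM tumor m10 was above vehicle tumor m3 for both genes. The 3 comparisons share the vehicle tumors, so their like directions are not separate observations.

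The 6 genes at an unadjusted p under 0.05 in the combination were *Slc38a2*, *Eif2ak4*, *Trib3*, *Ddit3*, *Sesn2* and *Atf4*. *Trib3* had 19.1, 17.9 and 18.5 CPM, within 1.06 times of each other, against 16.0, 37.2 and 50.8 CPM in vehicle (-0.91, SE 0.32, adjusted p = 0.666). *Ddit3* had 27.3, 23.5 and 29.7 CPM against 25.1, 37.2 and 59.2 CPM (-0.59, SE 0.24, adjusted p = 0.682). *Sesn2* had 19.7, 16.9 and 19.4 CPM against 19.2, 31.5 and 44.1 CPM (-0.76, SE 0.28, adjusted p = 0.666). *Atf4* had 346, 329 and 306 CPM against 319, 424 and 496 CPM (-0.34, SE 0.14, adjusted p = 0.682). In all 4 genes the combination tumors lay around the vehicle tumor m1 and well below m2 and m3. *Chac1*, with 10.9, 7.83 and 7.01 CPM in the combination and 10.5, 21.7 and 30.6 CPM in vehicle, had the same shape (-1.28, SE 0.37, adjusted p = 0.666).

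Serine and one-carbon enzymes were closest to vehicle in the combination, with a median of -0.13 over 7 genes. *Aldh1l2* had 12.2, 6.66 and 6.50 CPM (-0.43, SE 0.36, adjusted p = 0.796), while *Shmt2* and *Mthfd2* were at -0.024 and -0.025. *Cth* had 10.4, 9.35 and 8.20 CPM (-0.45, SE 0.34, adjusted p = 0.774), the largest change of the other enzymes. *Slc3a2* had 214, 206 and 220 CPM against 188, 261 and 306 CPM (-0.24, SE 0.15, adjusted p = 0.745), the largest of the transporters, all 7 of which were lower in mean. *Stc2* had 14.2, 12.2 and 11.1 CPM (-0.24, SE 0.25, adjusted p = 0.842).

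How far these directions depended on single vehicle tumors was read from fits without them. Without m3, the vehicle tumor with the highest levels, 20 of 36 genes were lower after VCR, 17 after RCM1-NPFA and 22 after the combination, with medians of -0.048, 0.0055 and -0.024. Without m1, the vehicle tumor with the lowest levels, 33, 34 and 34 were lower, with medians of -0.38, -0.34 and -0.37. Without m1 edgeR called 8 of the 36 genes after VCR (1.56% of all genes, 281 in number), all lower: *Aldh18a1*, *Asns*, *Cth*, *Eif2ak4*, *Mthfd1l*, *Ppp1r15a*, *Stc2* and *Trib3*. Without m3 the medians were thus much smaller in size, with the sign turned after RCM1-NPFA, and without m1 they were larger. Without both m5 and m9, the tumors with most muscle RNA, 29 genes were lower after VCR and 33 after RCM1-NPFA and after the combination, with medians of -0.16, -0.25 and -0.21. The hypoxia genes were also lower in mean after VCR, 9 of 9, with 1 called (5.55% of all tested genes). They had 510 to 599 CPM in sum against 680 to 1356 CPM in vehicle. After RCM1-NPFA 8 of 9 were lower, with a median of -0.23, and after the combination 9 of 9, with a median of -0.54. The 6 endothelial genes were higher in mean in all 3 comparisons, 6 of 6 each, and the 5 erythroid genes were lower after the combination, 5 of 5, with a median of -3.86. The erythroid genes summed to 12.6, 6.70 and 18.8 CPM in the combination, a range that holds vehicle tumor m3 (11.6 CPM). They summed to 409, 12.5 and 6.37 CPM in VCR tumors m4, m5 and m6. The part of hypoxia, endothelial and erythroid genes in the members' values was not tested.

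The combination was then compared with each drug alone. Against VCR, 17 of 36 genes were lower and 19 higher, with a median of 0.0064 on the log2 scale, and the number lower ran from 12 without m4 to 21 without m5 or m10. None was called, as in the whole table (0%), and *Eif2ak4* was the 1 gene at an unadjusted p under 0.05 (5.26% of all genes). Against RCM1-NPFA, 24 were lower and 12 higher, with a median of -0.029, none was called (0% of all genes), and 0 of 36 had an unadjusted p under 0.05 (2.07% of all genes). This direction turned without m9 (16 lower, median 0.054), without m12 (16 lower, 0.013) and without both m5 and m9 (15 lower, 0.057). The log2 fold change of *Trib3* was -0.61, and DESeq2 on these 2 groups alone called the gene (adjusted p = 0.0565), 1 of 13 genes in all (0.0775%). DESeq2 with all 12 tumors called 0 genes here. For the interaction, 30 genes were positive, with a median of 0.12 (without m3, 23 were negative, with a median of -0.045), 0% of all genes were called, and 1 gene of 36, *Eif2ak4*, had an unadjusted p under 0.05, against 13.8% of all genes. DESeq2 called *Eif2ak4* and 2.73% of all genes for the interaction. Standard errors ran from 0.078 to 0.52 for the comparisons with single drugs and from 0.11 to 0.73 for the interaction.

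The wider pathway was read from 57 tested genes outside the 36. Of these, 34 had a lower mean after VCR, 36 after RCM1-NPFA and 37 after the combination. Only 1 of them was called, in VCR, where 5.55% of all tested genes were called. It was *Vegfa*, the vascular growth factor induced by ATF4 and by hypoxia, with 273, 339 and 360 CPM in vehicle and 247, 210 and 220 CPM after VCR (-0.52, SE 0.13, adjusted p = 0.0801). For *Vegfa* all VCR tumors were below all vehicle tumors, as for 10.9% of all genes. Of 13 genes of tRNA charging and export, 12 had a lower mean after VCR, with a median of -0.21 and 0 called. At an unadjusted p under 0.05 there were 3, all lower, while 10.4% of all genes were lower at that p. Of 13 genes of eIF2, its kinases and its exchange factor eIF2B, 7 were lower and 6 higher, and 0 were called. In each direction 2 had an unadjusted p under 0.05, against 22.1% of all genes in either direction. Of 16 tested enzymes of serine, glycine, folate and proline metabolism outside the 36, 6 were lower and 10 higher after VCR, with a median of 0.029. Of 15 further ATF4 targets, *Vegfa* among them, 9 were lower and 6 higher.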

How the data were processed

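Poly-A RNA libraries of 12 tumors, 3 in each of 4 groups, were sequenced. The authors assigned reads to GRCm38 transcripts with kallisto and deposited an estimated count, a TPM value and an effective length for each transcript. The estimated counts are neither normalized nor whole. A stranded kit is named but the libraries are called non-stranded. The authors' own tests, made with DESeq2, were not used.

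Transcripts were matched to RefSeq genes (120299 of 120299), summed per gene and rounded. Genes passing edgeR's filterByExpr (minimum count 10) were tested in R 4.3.3 with edgeR 4.0.16 (quasi-likelihood F test), with TMM and all 12 tumors in one fit, and p-values were adjusted by Benjamini-Hochberg over 17602 genes at a threshold of 0.1. CPM are TMM-scaled. Correlations used log2 (CPM + 0.1) and 100000 two-sided permutations. Alternatives used DESeq2 1.42.0, limma 3.58.1, other filters, scalings and thresholds, and leaving out tumors. The test was also run on simulated counts, with each gene drawn independently and changes set only after VCR. The simulation held neither the shared variation of genes between tumors nor their differences in muscle RNA, so it does not cover these. Python 3.11.15, numpy 2.4.6, scipy 1.17.1, pandas 2.3.3 and matplotlib 3.10.9 were used.

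The members and lists were chosen with earlier results of these data known. Members were given in full where the unadjusted p was under 0.05 or the change was the largest of its role against vehicle. Of other genes, *Chac1* and pathway genes past the threshold were named. P-values measure the spread between these tumors.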

Additional observations from a re-analysis of the deposited data

How the results depend on the processing

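No paired analysis was possible because the tumor numbers run from 1 to 12 and match no tumors between groups. Depth limits *Gdf15*, *Aldh1l2* and *Vldlr* most. The number of genes of the 36 called after VCR was 1. It was 5 with DESeq2 (*Eif2ak4*, *Mthfd1l*, *Aldh1l2*, *Aldh18a1* and *Cth*; 2285 genes in all), 2 with DESeq2 on only the groups compared (1544 genes in all) and 0 at a threshold of 0.05, and it ran from 0 (without m2, m4, m5 or m11) to 8 (without m1) with each tumor left out. After RCM1-NPFA it was 0, but 2 with DESeq2 and 1 (*Slc38a2*) with DESeq2 on only the groups compared. For the combination against RCM1-NPFA the latter gave 1 (*Trib3*), and for the interaction DESeq2 gave 1 (*Eif2ak4*). The other filters, scalings and limma-voom kept these counts. The log2 fold change of *Trib3* after RCM1-NPFA ran from -0.64 to 0.085 with each tumor left out. Pearson's r of *Asns* and *Trib3* was 0.385 without m2 and m3 and 0.598 to 0.837 with each tumor left out, that of *Atf4* and *Asns* 0.057 and 0.369 to 0.703, and that of *Asns* and *Chac1* 0.699 on deviations from the group means and 0.306 to 0.639. The cause of these changes was not tested.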

Other observations

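Transcripts of some of the genes, *Eif2ak4* among them, took different shares of their gene's reads in different tumors. The transcript NM_001301424.1 of *Slc7a1*, the arginine transporter CAT1, had 45.0%, 20.4% and 28.7% of the estimated reads of the gene in the vehicle tumors. It had 74.4%, 57.2% and 47.6% after VCR, 54.2%, 53.5% and 61.0% after RCM1-NPFA, and 45.5%, 37.2% and 55.0% after the combination. The transcript XM_030251003.1 of *Aldh18a1*, a predicted transcript in RefSeq, had 4.95%, 6.74% and 7.01% in the vehicle tumors. It had 15.7%, 25.2% and 13.2% after VCR, 8.53%, 14.8% and 10.5% after RCM1-NPFA, and 9.85%, 7.84% and 14.0% after the combination. For both transcripts, every VCR and every RCM1-NPFA tumor was above every vehicle tumor. These transcripts were chosen after their values were seen, the shares depend on how kallisto divides shared reads, and they were not tested. How many other transcripts separate in this way was not counted. Of the 36 genes, the 5 whose exon bases overlapped genes on the other strand most were *Slc6a9* (30.2% of its exon bases), *Cebpb* (20.7%), *Aldh1l2* (14.1%), *Psph* (10.4%) and *Eif2ak3* (8.05%). The shares of *Ddit3* (4.73%) and *Atf5* (4.11%) came next.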
